A study of Drosophila melanogaster with 4 samples.

Results

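The regions described here are the peaks on chromosome arm 3R, the right arm of chromosome 3 of Drosophila melanogaster, in a chromatin immunoprecipitation and sequencing (ChIP-seq) experiment on a GFP-tagged Lola protein. They were chosen by position alone, as every row of the authors' peak list placed on 3R. Rows on 3RHet, the heterochromatin assigned to the same arm, were left out. The arm held 698 of the 2639 peaks in the list (26.4%).

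The samples were whole wandering larvae of the third instar, of unknown sex, from 1 strain. The strain is labelled lola-RI-GFP, its genotype PBac{y[+]-attP-3B}VK00033 and its transgene the genomic coding region of lola-RI, while the title of the series names lola-PI. There were 2 libraries precipitated with a rabbit polyclonal antibody to GFP (ChIP) and 2 of input DNA, all from that strain by their labels, although the protocol text speaks of y; bw cn sp flies. Control and ChIP libraries thus share the transgene, and no untagged strain was analysed here. Whole larvae pool many tissues, so the list does not tell which cells a peak comes from. The files give 1 list for the series with no value per library, so depth is unknown, no replicate error can be attached to a value, and no comparison below is a test.

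The lola gene (longitudinals lacking) encodes a family of transcription factors made by alternative splicing. The isoforms share a BTB domain, through which such proteins bind one another. Most isoforms end in their own zinc fingers, which contact DNA, so isoforms can differ in the sites they occupy. In the fly, lola is known for its part in axon guidance and in keeping neurons in their differentiated state. A peak is a stretch where precipitated DNA was called as enriched. It does not tell whether Lola touches the DNA itself or is held there by another protein.

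The arm carries both homeotic gene complexes, Antennapedia and bithorax, which set segment identity along the body. Peaks are placed here on FlyBase release 5. The gene table used here is on release 6, so no peak or gap was assigned to these complexes or to any other gene, and no sequence under a peak is shown.

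Peaks on 3R were short and mostly of modest score. The median width was 294 bp (95% interval 281 to 304), with quartiles of 233 and 385 bp. The narrowest width, 201 bp, was shared by 28 peaks (4.01%), and 2 peaks were wider than 1000 bp. Together the peaks covered 234 kb, or 0.84% of the arm up to the end of its last peak at 27893703. Each interval comes from the exact binomial or Poisson distribution, covers counting error only and takes peaks as independent, which crowded peaks are not.

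Scores are the authors' own and have no stated scale, so they serve here to rank and describe peaks within the list. On 3R they ran from 6.65 to 132 with a median of 13.1 (95% interval 12.6 to 13.5) and quartiles of 10.6 and 16.3. Of the 698 peaks, 127 scored under 10 and 343 between 10 and 15, so low and middling scores made up most of the arm. A further 137 lay between 15 and 20, 70 between 20 and 30, and 21 (3.01%) reached 30 or more. The lowest-scoring peak of the arm ran from 14124266 to 14124699 with a score of 6.65, close to the lowest score of the whole list, 6.27. The 698 peaks took 356 distinct scores, and the commonest values, 11.11, 12.12 and 14.54, were each held by 14 peaks.

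Scores and widths on 3R lay close to those on 2L and 3L, the left arms of chromosomes 2 and 3. The median score was 13.1 on 2L, 0.06 below that of 3R, and 12.9 on 3L, 0.23 below. The share of peaks scoring 30 or more was 2.67% on 2L (14 peaks, Clopper-Pearson 95% interval 1.47 to 4.44%) and 2.64% on 3L (16 peaks, 1.52 to 4.26%), and the interval for 3R was 1.87 to 4.56%. The median width was 297.5 bp on 2L and 290.0 bp on 3L, and both intervals overlapped that of 3R.

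**Figure D1:**
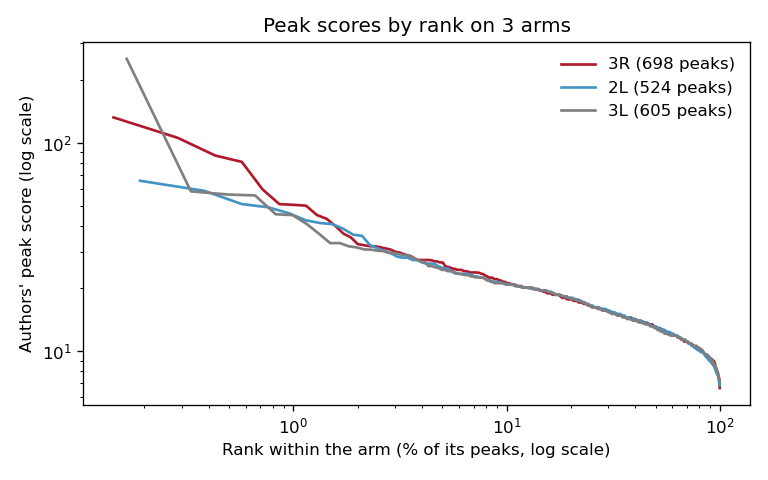
Authors' peak score (log scale) against rank within the arm, as a percentage of its peaks (log scale), with 1 line each for 3R (698 peaks), 2L (524 peaks) and 3L (605 peaks). The lines lie close together over most ranks and part only at the few highest peaks, where 3R reaches 132, 2L 65.8 and 3L 253.

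The highest peaks of 3R stood well above its quartiles, and they differed in width and surroundings. Only 4 peaks of the arm scored above 80, and all 4 were among the 10 highest of the list. Of the 100 highest in the list the arm held 21, below its share of all peaks, 26.4%, a difference that was not tested. The highest peak of the arm, from 58080 to 58848, scored 132 and was 769 bp wide, and it had neighbours on both sides within 1 kb. The next, from 27283607 to 27284227, scored 106 and stood alone, with 235 kb free of peaks before it and 144 kb after it. The highest and second-highest peaks therefore lie near opposite ends of the arm, one in a crowd and one in isolation.

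The peak from 15686497 to 15687939 scored 86.9 and was the widest of the arm, at 1443 bp. The peak from 8537936 to 8538792 scored 81.0, was 857 bp wide and was followed by 285 kb without a peak. Rank 5, from 4688993 to 4689519, scored 59.8. These 5 were all wider than 500 bp, but a high score did not require a wide peak. The peak from 1975394 to 1975698 scored 45.0 at a width of 305 bp, near the median of the arm, and the one from 26354649 to 26355017 scored 49.9 at 369 bp. The remaining 3 of the 10 highest were 19606957 to 19607466 (score 50.8), 3334208 to 3334608 (score 50.4) and 21232870 to 21233515 (score 43.2). The first peak outside these 10 scored 39.9.

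Of these 10 highest peaks, 3 had a neighbour within 1 kb, and 3 had none within 50 kb. Over all 21 peaks scoring 30 or more, 11 had a neighbour within 1 kb (52.4%, Clopper-Pearson 95% interval 29.8 to 74.3%). The share was 38.6% of the 70 peaks between 20 and 30, 44.6% of the 480 peaks between 10 and 20, and 38.6% of the 127 peaks under 10. The intervals of these shares overlap, and the share did not rise steadily with score.

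Wide peaks tended to score higher. Spearman's rho between width and score was 0.44 over the 698 peaks, a description across peaks whose width and score come from the same calls. It was 0.46 on 2L and 0.41 on 3L. The median width rose by score band, from 243 bp under a score of 10 to 285.5 bp between 10 and 20, 439 bp between 20 and 30, and 518 bp from 30 on. Single peaks departed from this. The second-widest peak, from 8255362 to 8256773, was 1412 bp wide and scored only 17.7. The next 3 by width, from 16078516 to 16079453 (938 bp), 11234272 to 11235165 (894 bp) and 1042240 to 1043127 (888 bp), scored 20.2, 16.8 and 13.4. Of the 8 peaks at least 800 bp wide, the median score was 17.3 and the lowest 13.4.

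**Figure D2:**
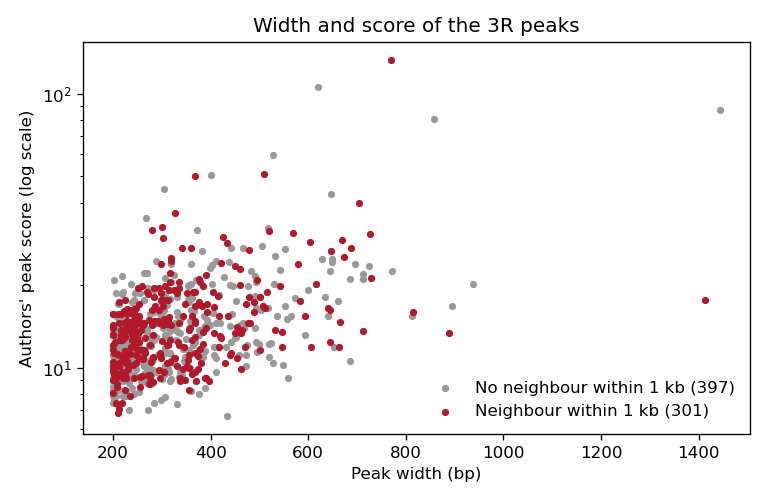
Authors' peak score (log scale) against peak width in bp for the 698 peaks of 3R. Red points are the 301 peaks with a neighbour within 1 kb and grey points the 397 without one. Scores are higher among wide peaks, and both kinds of peak fill the same range apart from a few high points.

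Close neighbours made up a larger share on 3R than on 2L, with intervals that just overlap, and a share nearer to that of 3L. Gaps were measured between the edges of neighbouring peaks. Of the 697 gaps on 3R, 174 were shorter than 1 kb (25.0%, Clopper-Pearson 95% interval 21.8 to 28.4%). On 2L the share was 18.5% (97 of 523, 15.3 to 22.1%), and on 3L it was 21.5% (130 of 604, 18.3 to 25.0%). The intervals of 3R and 2L share only the values from 21.8 to 22.1%, those of 3R and 3L share more, and the differences themselves were not tested. The share on 3R was the highest of the 3 arms at limits of 500 bp (13.5%, against 9.94% and 10.1%) and 2 kb (33.6%, against 29.6% and 31.5%) as well. These limits count many of the same gaps, so the shares are not independent.

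The median gap on 3R was 9654 bp (95% interval 6715 to 13535), against 9022 bp on 2L and 9564 bp on 3L. Gaps from 1 to 10 kb made up 25.5% on 3R, against 32.9% on 2L and 28.8% on 3L. On 3R 81 gaps (11.6%) reached 100 kb, against 13.0% on 2L and 11.9% on 3L. Together they made up 57.4% of 3R, 66.0% of 2L and 61.6% of 3L.

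**Figure D3:**
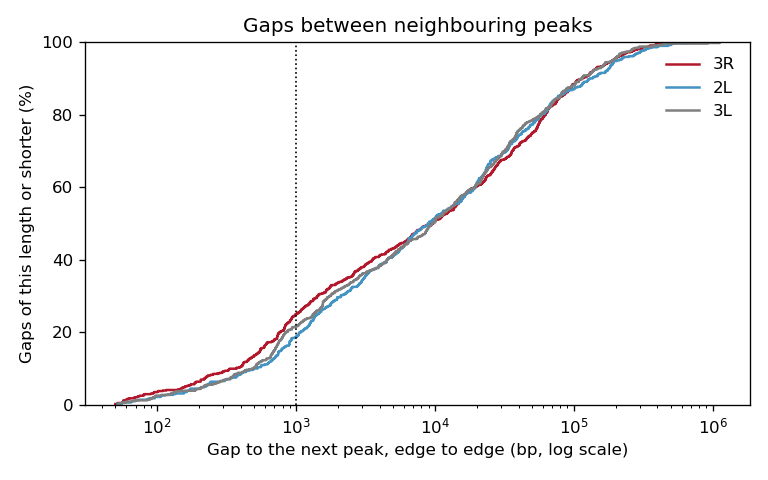
Cumulative share of gaps (%) against gap length from edge to edge in bp (log scale) for 3R, 2L and 3L, with a dotted line at 1 kb. At the dotted line 3R stands at 25.0%, 3L at 21.5% and 2L at 18.5%, and the lines lie close together around the median.

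Counting each unbroken run of peaks less than 1 kb apart as 1 site brought 3R closer to 2L. By sites 3R stood slightly below 3L, with overlapping intervals, while by peaks it stood slightly above. The 698 peaks of 3R formed 524 sites, of which 397 were lone peaks and 127 were runs of at least 2. That is 18.8 sites per Mb (95% Poisson interval 17.2 to 20.5), against 18.6 on 2L and 19.4 on 3L. By peaks, the densities were 25.0 per Mb on 3R, 22.8 on 2L and 24.7 on 3L. The ratio of peak density was 1.10 for 3R over 2L (95% exact interval 0.98 to 1.23) and 1.01 for 3R over 3L (0.91 to 1.13), and both intervals include 1. Lone peaks stood at 14.2 per Mb on 3R, against 15.1 on 2L and 15.5 on 3L. Runs were denser on 3R, with overlapping intervals, at 4.55 per Mb (3.80 to 5.42) against 3.53 on 2L (2.80 to 4.38) and 3.83 on 3L (3.10 to 4.69). Whether the calling split single enriched regions into such runs was not tested.

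Of the 127 runs on 3R, 92 held 2 peaks, 24 held 3, 10 held 4 and 1 held 5. On 3R 35 runs held at least 3 peaks, against 12 on 2L and 26 on 3L, the counts being for arms of unequal length. The 92 runs of 2 peaks spanned 1077.5 bp at the median, with a median gap of 457 bp between the members. The member farther from the centromere had the higher score in 43 of the 92, so neither side prevailed. Their scores differed by 3.84 at the median and by under 3 in 33 of the 92.

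Peaks in runs on 3R had a median score of 13.7 and a median width of 303 bp, and lone peaks had 12.6 and 284 bp. The same order held on 2L (13.7 and 12.6) and 3L (13.7 and 12.1), so it was common to the 3 arms. At the other extreme, the 52 peaks of 3R with no neighbour within 50 kb on either side had a median score of 11.5. Such peaks had a median of 11.4 on 2L (26 peaks) and 12.4 on 3L (37 peaks). On 3L that was not below the median of its lone peaks.

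No gap on the 3 arms was shorter than 50 bp. The closest pair on 3R, 50 bp apart, was the peak from 15729506 to 15729742 (score 14.7) with that from 15729793 to 15730208 (score 18.3). The next 2 pairs, each 52 bp apart, began at 5065113 (scores 10.9 and 11.9) and at 5337123 (scores 14.5 and 10.8). A pair 56 bp apart began at 25760459 (scores 14.6 and 11.7). At 57 bp followed 4 pairs, beginning at 1289144, 10920522, 12976352 and 19755927. The pair at 10920522 was the most unequal of these 8, with scores of 20.9 and 9.90. On 3R 24 gaps (3.44%) were under 100 bp, against 2.10% on 2L and 2.48% on 3L.

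The longest runs of 2L and 3L held 6 peaks each. On 3R the longest run, from 11115824 to 11119202, set 5 peaks within 3379 bp. From left to right they scored 14.5, 12.4, 14.5, 17.1 and 10.1, so none stood out, and their widths ran from 212 to 645 bp. The longest run of 4 peaks lay from 8255362 to 8259323. It began with the second-widest peak of the arm, and its scores were 17.7, 12.1, 11.1 and 12.5. Another run of 4, from 12062925 to 12066843, was more uneven, with scores of 21.2, 9.21, 18.0 and 27.4, the last of them 342 bp wide.

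Crowding also showed over longer distances. The fullest 100-kb stretch of 3R, from 12012939 to 12107488, held 17 peaks with a median score of 16.25, and 5 of them scored at least 20. All but 2 of its peaks lay from 12049940 on. Between 12054854 and 12070674, 9 peaks followed each other. Their scores ran from 8.98 to 27.4, and the highest was the last member of the uneven run of 4. The median score of the stretch lay near the upper quartile of the arm, 16.3. The fullest stretches of 2L and 3L held 18 and 17 peaks.

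After it came 2 stretches of 13 peaks each. The one from 10478979 to 10568279 had a median score of 14.3, and none of its peaks reached 20. The one from 11050595 to 11119202 spanned 68.6 kb, with 6 gaps under 1 kb. It ended with the run of 5 peaks, and its highest peak, from 11068093 to 11068360, scored 35.1.

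A further 6 stretches tied at 12 peaks, over 47.7 to 98.8 kb and with median scores from 11.2 to 14.3. From left to right they ran from 2893208 to 2970951, 5359629 to 5458465, 5871335 to 5959999, 7023386 to 7071060, 16382379 to 16460326 and 16589426 to 16659025. They differed in spacing. The shortest, from 7023386, held its 12 peaks in 47.7 kb with 6 gaps under 1 kb. The first held only 1 such gap, and 9 of its peaks lay between 2893208 and 2916600, most of them a few kb apart. The stretches from 5359629 and 5871335 both lay in the fullest Mb of the arm.

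**Figure D4:**
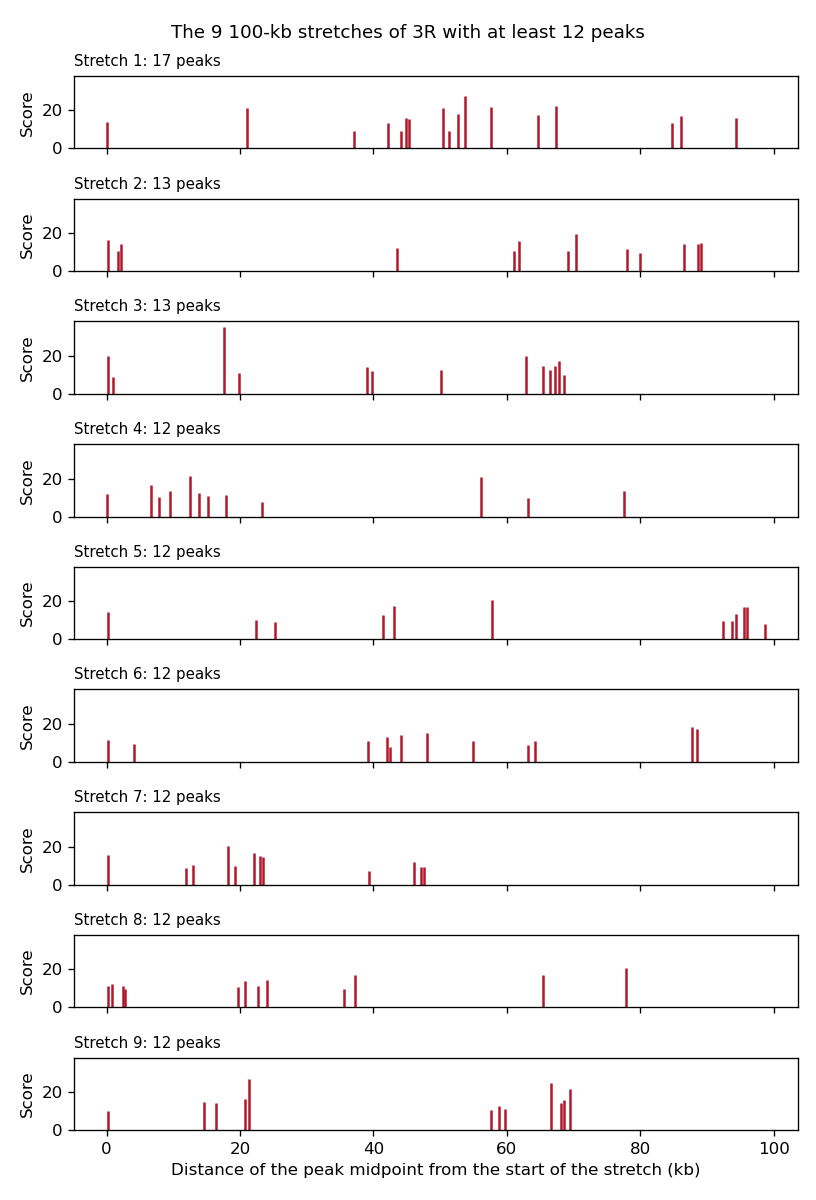
Peaks of the 9 stretches of up to 100 kb on 3R with at least 12 peaks, 1 panel each, with the distance of the peak midpoint from the start of the stretch in kb and the authors' score as the height of each line. Stretch 1 holds 17 peaks, most of them in its middle, stretches 2 and 3 hold 13 each, and the other 6 hold 12 each. The highest line of the plot, in stretch 3, reaches 35.1.

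The 5 longest gaps of the arm were of nearly the same length. They ran from 11235166 to 11664433 (429 kb), 2483954 to 2893207 (409 kb), 23750341 to 24151275 (401 kb), 12476679 to 12868458 (392 kb) and 7836990 to 8226841 (390 kb). The longest gaps elsewhere were 663 kb on 2L and 1125 kb on 3L. No gap on 3R reached 500 kb, and 3 on 2L and 2 on 3L did. Among the 10 peaks that border these gaps on 3R, scores ran from 8.03 to 18.3. Without depth or sequence, a gap cannot be told apart from a stretch where reads could not be placed.

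Of the 6 tied stretches, 1 bordered one of these gaps. It began at 2893208, with the peak that ends the second-longest gap, and the other 5 bordered none of them. The 3 fullest stretches, the longest gap and the fourth gap all fell within 2.39 Mb, from 10478979 to 12868458. That section was singled out after its values were seen. It held 75 peaks, of which 43 (57.3%) lay in the 3 stretches, over 10.6% of its length, while the 2 gaps took up 34.4% of it. Its mean density was 31.4 peaks per Mb.

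Over longer bins the counts of 3R had a smaller SD than those of 2L and 3L, a difference that was not tested. The 27 complete 1-Mb bins of 3R held 24.9 ± 8.69 peaks (mean ± SD over bins), from 11 to 45. The bins of 2L held 23.0 ± 10.5, from 5 to 41, and those of 3L 25.1 ± 10.7, from 5 to 48. On 3R the sixth bin, from 5 to 6 Mb, was the fullest, with 45 peaks at a median score of 12.1. The emptiest was the bin from 24 to 25 Mb, with 11 peaks, and it followed bins of 13 and 14. The highest median score, 18.1, belonged to the bin from 26 to 27 Mb, with 18 peaks.

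**Figure D5:**
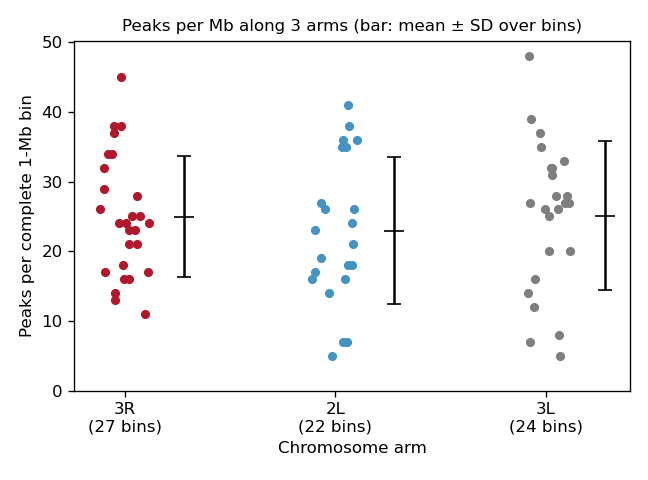
Peaks per complete 1-Mb bin on 3R (27 bins), 2L (22 bins) and 3L (24 bins), 1 point per bin, with the mean and SD over bins beside each arm. The points of 3R run from 11 to 45, and no bin of 3R is as low as the lowest bins of 2L and 3L, which hold 5.

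Numbering of 3R starts at the centromere, so its first Mb is the centromere end. That Mb held 29 peaks, 1.16 times the mean of the arm (95% Poisson interval 0.78 to 1.66), an interval that includes 1. Within it 16 of the 29 peaks lay in the first 0.3 Mb, or 53.3 per Mb (30.5 to 86.6), 2.13 times the arm mean. That length was chosen after the values were seen, so its interval cannot show an excess. Over the first 0.5 Mb the ratio was 1.44 (0.85 to 2.27), an interval that includes 1. The 0.3 Mb at the centromere end held 7 peaks on 2L and 2 on 3L, measured there from the end of the last peak. At the telomere ends the order was different, with 9 peaks in 0.3 Mb on 3R, 18 on 2L and 11 on 3L. The count on 2L was 2.63 times the mean of that arm. At the telomere ends 3R was measured from the end of its last peak, and 2L and 3L from the start of their numbering.

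The centromere end of 3R opened with a lone peak from 517 to 727 (score 9.90) and another from 47028 to 47283 (score 13.6). Then came a run of 4, from 56782 to 59363, which held the highest peak of the arm. Its other members scored only 12.7, 9.93 and 14.0, near or below the arm's median. From 222507 to 229392 lay 7 peaks less than 2 kb apart, against at most 6 at that limit on 2L and 3L. At the 1-kb limit the order was reversed, with at most 5 peaks in a run on 3R and 6 on 2L and 3L. The 7 peaks included one of 300 bp from 225655 to 225954 with a score of 32.6, and the median of the 7 was 11.6. At the telomere end, 3 close peaks from 27877060 to 27879557 scored 14.0, 20.6 and 18.0. The last peak, from 27893263 to 27893703, scored 12.4, and the one before this group, from 27811091 to 27811317, scored 7.88.

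Median scores were higher away from the centromere, with intervals that overlap. Cut into 4 parts of equal length, chosen after the values were seen, the arm had median scores of 12.1, 13.2, 13.4 and 13.6 from the centromere outwards. The 95% intervals of the first part (11.6 to 13.2) and the last (12.4 to 15.1) overlap. Peaks were fewest in the last part, with 130, or 18.6 per Mb (95% Poisson interval 15.6 to 22.1), against 197, 176 and 195 in the others. That part nevertheless held 27 of the 91 peaks scoring at least 20, more than any of the other 3. On 3L the highest median, 13.6, was in the part next to the centromere, followed by 12.8, 12.4 and 12.6. On 2L the medians were 13.3, 12.4, 13.2 and 13.2 in the same direction. Among peaks at or above the list's median score, the part of the arm beyond its midpoint had the higher median on 3L too, by 1.19, against 0.98 on 3R.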

How the data were processed

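ChIP and input libraries, 2 of each, were grouped from their titles. Per the file headers, the authors' list is on FlyBase release 5, and its source column names MACS. BWA, MACS2, the BDGP5 build and CASAVA (versions 1.7.0.2 and 1.7.0.3) appear in the submitters' processing notes, which state no role for them. Neither those notes nor the file states the calling threshold or whether libraries were pooled. The deposited values were the start and end of each peak (other values, in bp) and a peak score of unstated scale. Since calling decides where 1 peak ends and the next begins, counts of close pairs depend on it.

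Peaks of 3R, 2L and 3L were counted, and gaps were measured between edges. Peaks less than 1 kb apart formed a run. Arm length was taken as the end of the last peak, a lower bound. Medians, counts and shares carry exact 95% intervals (binomial order statistics, Poisson, Clopper-Pearson). No test was made, since peaks are not replicates. The functions were tested on simulated data. The regions, lists and alternatives were chosen with earlier results of these data known. Named by rule were the 10 highest and 5 widest peaks, the 5 closest pairs with ties, the 5 fullest 100-kb stretches (with every stretch tied with the last of them), the 5 longest gaps, the first and last 5 peaks and the 3 longest runs. Others were chosen after their values were seen. Scripts ran in Python 3.11.15 with scipy 1.17.1, pandas 2.3.3 and numpy 2.4.6, and figures were drawn with matplotlib 3.10.9.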

Additional observations from a re-analysis of the deposited data

How the results depend on the processing

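No paired analysis was possible because each peak has 1 value in all, not 1 for each library. Leaving out a replicate was not possible either. Of 48 alternative values of 10 results, 32 stayed within a band around the main value. For most results the band was the main exact interval. For the count in the fullest stretch it was 1.5 times the main count either way, set by convention. For the score differences it joined opposite limits of the 2 medians, which is looser than an exact interval (-0.81 to 0.90 from 2L, -0.80 to 1.16 from 3L). Both density ratios stayed within their bands under each alternative tried (1.05 to 1.10 over 2L and 0.98 to 1.05 over 3L). So did the score differences (-0.14 to 0.27 from 2L, -0.44 to 0.52 from 3L) and the ratio of the first Mb (1.05 to 1.44). Keeping only peaks at or above the list's median score moved the median score of 3R to 16.4, the median width to 333.5 bp, the median gap to 25173 bp and the share of gaps under 1 kb to 17.7%. At or above the upper quartile they were 20.6, 382 bp, 71903 bp and 10.8%, and the fullest stretch held 7 peaks. These moves follow from dropping peaks. Joining peaks within 500 bp moved the median width to 313.5 bp, the median gap to 15667 bp and the share of close gaps to 13.3%. That share was 13.5% at a limit of 500 bp and 33.6% at 2 kb. Per 100 kb, the fullest stretch held 28 peaks over 50 kb and 10 over 200 kb. Added after seeing the data, the share of close gaps on 3R exceeded those on 2L and 3L in every set of peaks and at each limit tried, with intervals that overlapped (after joining 13.3%, 9.55% and 12.7%). These sets and limits draw on the same peaks, so they are not separate support. The distal minus proximal difference in median score on 3R was 0.69, and 0.46 to 0.98 in the other sets. On 2L it was 0.40, and -1.05 at or above the upper quartile. On 3L it was -0.79, and 1.19 and 0.27 at or above the list's median and upper quartile, so the contrast of 3L with 3R does not hold among higher scores. The unknown depth limits any statement on regions without a peak.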

Other observations

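The heterochromatin assigned to this arm, 3RHet, was outside the 698 peaks and held 4. They ran from 1524078 to 1524399 (score 17.7), 1821190 to 1821394 (score 9.44), 1899018 to 1899417 (score 16.5) and 1900291 to 1900531 (score 9.44). None reached the score of 32.6 seen in the crowded group near the centromere end of 3R. Of the 21 peaks of 3R scoring 30 or more, 7 lay between 22792651 and 26632206, a region picked after its values were seen, with 63 peaks in 3.84 Mb. Within it the pair from 26353339 to 26353907 (score 31.1) and from 26354649 to 26355017 (score 49.9) was the only run of the arm with more than 1 member scoring at least 30, and 277 kb without a peak followed it.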
